A study of Homo sapiens with 24 samples.

Results

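Wild-type HT29 cells were compared with wild-type SW480 cells across all genes measured by RNA sequencing. The 8 libraries were chosen by their labels, cell line HT29 or SW480 and genotype CTNNB1 wild-type, out of 24 libraries in the series. HT29 and SW480 are established human colorectal carcinoma cell lines. HT29 WT was represented by clones 11 and 40, and SW480 WT by clones 4 and 5, each sequenced in rounds A and B. These WT clones were unedited outcomes of the CRISPR/Cas9 experiment against CTNNB1, the gene of β-CATENIN, so that cloning from single cells is common to WT and knock-out clones. Cells of both lines were grown in the same medium without any treatment. Each group therefore rests on 2 clones of 1 cell line, and 4 libraries per group measure the spread between these clones and rounds. The study describes the rounds as independent biological replicates. HT29 and SW480 clones with a biallelic deletion of CTNNB1 exon 7 (KO, 8 libraries) served as a second comparison of the lines. The study saw SW480 KO clones become senescent in long culture, and at what point they were harvested relative to this is not given in the sources used here.

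WNT signalling stabilizes β-CATENIN, which binds TCF/LEF factors on DNA and switches on target genes, several of which feed back on the pathway. A destruction complex built around APC and AXIN1 marks β-CATENIN for degradation. APC is inactivated by mutation in most colorectal cancers, HT29 and SW480 included, so that the pathway runs without ligand. Gut epithelium normally holds its cells together by E-cadherin junctions and tight junctions and produces absorptive and mucus-secreting cells under the control of factors such as CDX2 and the HNF4 family. HT29 carries an activating mutation of BRAF, a kinase upstream of the ERK MAP kinases.

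The 4 HT29 WT libraries held 22297049 to 27982576 recovered reads and the 4 SW480 WT libraries 25857212 to 27951928. Between 21736 and 22244 gene identifiers had a value above 0 in HT29, and between 23929 and 24944 in SW480. The line accounted for 90.9% of the sums of squares over the tested genes, clones of a line for 6.47% and rounds of a clone for 2.65%. Levels below are normalized read counts, that is, reads per gene after each library was scaled by its own size factor. A gene was called when limma's test gave a Benjamini-Hochberg adjusted p below 0.05 and the log2 fold change, coded HT29 minus SW480 on log2 of the value plus 1, exceeded 1 in size.

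Of 16275 genes tested, 6468 differed between the lines (39.7%). HT29 had the higher level for 2410 of them (14.8% of genes tested) and SW480 for 4058 (24.9%), so that 62.7% of the calls were higher in SW480. TMM scaling, size factors of the 8 libraries, DESeq2 and edgeR kept between 60.2% and 62.0% of the calls on the SW480 side. Quantile normalization, which forces all libraries to one distribution and moved the median of all genes by 0.21 on the log2 scale, turned the split and gave 3599 genes higher in HT29 and 3234 higher in SW480. The split was nearly even among genes expressed in both lines, where 9799 genes had a mean of at least 100 in each line and 1100 were called higher in HT29 against 1201 higher in SW480. Genes close to silent in one line were more often the HT29 ones. In 961 genes called higher in SW480 every HT29 library held 3 reads or fewer, whereas 263 genes called higher in HT29 were that low in every SW480 library. Protein-coding genes made up 714 of the former and 185 of the latter. Long non-coding RNA genes differed in 55.2% of 1544 tested, with 239 higher in HT29 and 613 higher in SW480, and pseudogenes in 28.9% of 1505, with 250 higher in HT29 and 185 higher in SW480.

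**Figure D1:**
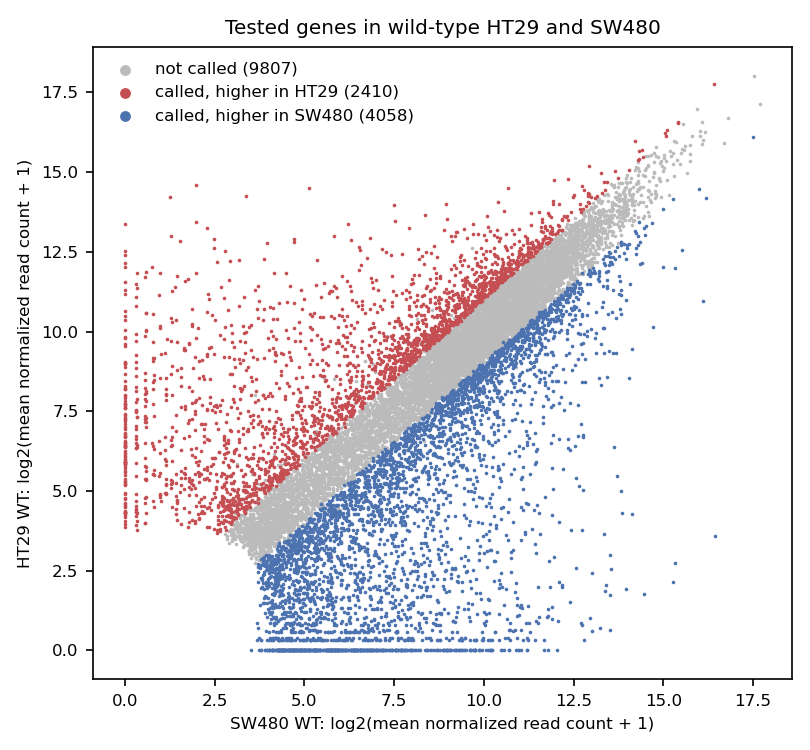
Each point is 1 of the tested genes, with log2 of the mean normalized read count plus 1 over 4 SW480 WT libraries on the horizontal axis and over 4 HT29 WT libraries on the vertical axis. The 2410 genes called higher in HT29 lie above the diagonal band and the 4058 called higher in SW480 below it, with a row of SW480 genes at 0 in HT29.

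CTNNB1 itself separated the lines. CTNNB1 (ENSG00000168036, GRCh37, chromosome 3, positions 41236232 to 41301587) was at 6019 and 6067 in HT29 clone 11, at 5883 and 6113 in clone 40, at 50940 and 50570 in SW480 clone 4 and at 43114 and 43246 in clone 5. The HT29 libraries were nearly equal, the SW480 clones differed a little from each other, and the lines did not overlap. SW480 was 7.80-fold higher by the ratio of the means (log2 fold change -2.96 ± 0.08 SE, adjusted p = 2.7e-09). Of 35 other tested genes within 3 Mb of CTNNB1, 14 were called higher in SW480 and 1 higher in HT29, with a median log2 fold change of -0.89 beside -0.09 for all genes tested. Of all genes tested, 24.9% were called higher in SW480 and 14.8% higher in HT29. The shift was not limited to this stretch. Windows of 50 consecutive tested genes of chromosome 3, from position 23958082 to 63997824, had medians between -1.29 and -0.78. ULK4, which overlaps the end of CTNNB1, was at 68.9 ± 9.76 (SD, n = 4) in HT29 and 677 ± 9.61 in SW480. Since strand was not marked by the library kit, reads in the overlap cannot be assigned to one of these genes. In KO clones CTNNB1 was at 300 in HT29 and 1024 in SW480 on average, and ULK4 at 93.5 and 565. How far overlapping reads enter the ULK4 values was not tested. Of 34 tested genes of the destruction complex and nuclear WNT factors, CTNNB1 included, 5 were higher in HT29 (14.7%) and 8 in SW480 (23.5%), shares close to those of all genes tested (14.8% and 24.9%). Their median log2 fold change was -0.11 and turned to 0.12 without HT29 clone 11. AXIN1, a scaffold of the destruction complex, was 2.20-fold higher in HT29 (2684 ± 221 against 1221 ± 59.5), and TLE3, a corepressor that binds TCF/LEF factors, was 7.60-fold higher in SW480 (745 ± 355 against 5664 ± 271). APC did not pass the test, with 1468 ± 386 in HT29 and 1392 ± 127 in SW480 (adjusted p = 0.88).

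WNT feedback and target genes were mostly higher in SW480. Of 34 members 31 were tested, and 16 were called higher in SW480 (51.6%) and 1 in HT29 (3.23%). Among all genes tested these shares were 24.9% and 14.8%. The median log2 fold change of the list was -2.11. The median was -1.32 without HT29 clone 11, with 17 genes higher in SW480 and 1 in HT29, and -1.25 without clone 40, with 15 and 3. AXIN2, a feedback inhibitor and common readout of the pathway, was at 659, 590, 671 and 779 in HT29 (clone 11 rounds A and B, then clone 40) and at 12213, 11629, 11143 and 11049 in SW480 (clone 4 rounds A and B, then clone 5). The difference was 17.1-fold with no overlap (log2 fold change -4.10 ± 0.10, adjusted p = 1.1e-09). NKD1, an inhibitor of Dishevelled, was at 85.5, 29.4, 5.93 and 3.76 in the HT29 libraries and at 13438, 15425, 15104 and 14404 in the SW480 libraries. Clone 11 thus lay above clone 40 while both stayed far below SW480. APCDD1, a membrane inhibitor of WNT, reached 39218 ± 3654 in SW480 and 3.38 ± 1.64 in HT29, the largest difference on the SW480 side among genes with a mean of at least 1000 (log2 fold change -13.23 ± 0.30). LEF1, a TCF/LEF member induced by the pathway, was at 11.5, 12.2, 0 and 0 in HT29 and at 3885, 3322, 3959 and 3323 in SW480. It was therefore at 0 in both libraries of HT29 clone 40. Among the other TCF/LEF genes TCF7L1 was 48.8-fold higher in SW480 and TCF7L2 was 2.18-fold higher in HT29 (1380 ± 231 against 633 ± 53.7). TCF7, also a member of the feedback and target list, did not pass the test (2879 ± 830 and 3068 ± 258, adjusted p = 0.55).

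LGR5, the intestinal stem cell marker and R-spondin receptor, was the single member of this list higher in HT29. It was at 1151, 842, 769 and 946 in HT29 and at 0, 0.919, 0.965 and 0 in SW480, where no library held more than 1 read. Intestinal stem cell genes, taken as a whole list, divided between the lines. Of 18 tested, 5 were higher in HT29 (27.8%) and 7 higher in SW480 (38.9%), beside 14.8% and 24.9% of all genes. PROM1 (CD133) and PTPRO stood on the HT29 side, and ASCL2, a stem cell transcription factor, and EPHB2 on the SW480 side. MYC, a classical β-CATENIN target, had nearly the same level in both lines (6709 ± 661 and 6108 ± 426, log2 fold change 0.13 ± 0.09, adjusted p = 0.24). RNF43 and ZNRF3, ubiquitin ligases that remove WNT receptors, were not called either, with 3968 ± 407 and 2906 ± 504 for RNF43. CCND1 (cyclin D1) was called, at 4116 ± 558 in HT29 and 40861 ± 3672 in SW480, a 9.93-fold difference.

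SP5, a transcription factor induced by WNT signals, is shown with the start of its promoter because the TCF/LEF core motif occurs there 3 times. The RefSeq sequence covers the 250 bases before the transcript start on the plus strand (GRCh38.p14, chr2:170715087-170715336), and capitals mark the motif, CTTTGAA or CTTTGAT or the reverse complements TTCAAAG and ATCAAAG. The promoter of DKK1, a secreted inhibitor on the same list (GRCh38.p14, chr10:52314031-52314280, plus strand), holds the motif once.
SP5: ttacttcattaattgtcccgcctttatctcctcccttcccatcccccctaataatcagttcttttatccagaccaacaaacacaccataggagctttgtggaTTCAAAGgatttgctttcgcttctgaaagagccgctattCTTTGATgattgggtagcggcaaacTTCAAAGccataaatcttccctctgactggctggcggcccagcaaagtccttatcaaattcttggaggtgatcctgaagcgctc
DKK1: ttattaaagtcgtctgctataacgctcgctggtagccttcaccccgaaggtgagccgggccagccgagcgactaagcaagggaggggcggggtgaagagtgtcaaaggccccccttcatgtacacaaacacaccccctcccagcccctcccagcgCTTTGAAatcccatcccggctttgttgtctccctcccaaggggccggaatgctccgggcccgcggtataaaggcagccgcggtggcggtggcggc
The copies in SP5 begin 148, 109 and 84 bases before the start, the one in DKK1 95 bases before it. SP5 was at 95.1, 97.3, 5.93 and 7.52 in the HT29 libraries and at 3713, 3239, 4543 and 3682 in the SW480 libraries. SP5 was thus higher in SW480 than in either HT29 clone (log2 fold change -7.11 ± 0.90, adjusted p = 1.3e-04), and within HT29 clone 11 lay above clone 40. DKK1 did not pass the test (768 ± 634 in HT29 and 500.2 ± 56.5 in SW480, adjusted p = 0.94). In windows of 300 bases, 250 before and 50 after the start, the motif occurred on either strand in 6.98% of all 27305 promoters and in 4.05% of the 11222 that belonged to tested genes. The share was 4.32% among 2755 promoters of genes called higher in SW480, 4.91% among 1507 of genes called higher in HT29 and 3.75% among 6960 of genes tested and not called. Of the WNT feedback and target genes 19 had a promoter in the table, 2 with the motif. These shares are a description of letters in these windows and carry no test.

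Genes for WNT ligands, receptors and secreted modulators also leaned to SW480, with 21 of 36 tested higher there (58.3%) and 7 in HT29 (19.4%). Among all genes tested these shares were 24.9% and 14.8%. The median log2 fold change of the list was -2.01. The lines expressed different ligands. WNT5A, which signals mainly without β-CATENIN, was at 9881, 10064, 8859 and 9744 in SW480 and at 0, 0, 0 and 2.51 in HT29. WNT6 was also found in SW480 (2103 ± 421 against 1.69 ± 1.60). WNT7B was at 277, 304, 910 and 1026 in HT29 and did not exceed 3.03 in SW480, and WNT11 was 14.9-fold higher in HT29 (1682 ± 333 against 113 ± 10.7). Among the Frizzled receptors FZD1 was 28.2-fold higher in SW480, and the WNT5A receptor ROR2 was at 669 ± 60.1 in SW480 and 0.240 ± 0.480 in HT29. The coreceptor LRP5 was 2.73-fold higher in HT29. The secreted inhibitors DKK3 and SFRP5 were practically limited to SW480 (1383 ± 189 and 226 ± 68.4), with SFRP5 at 0 in every HT29 library.

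**Figure D2:**
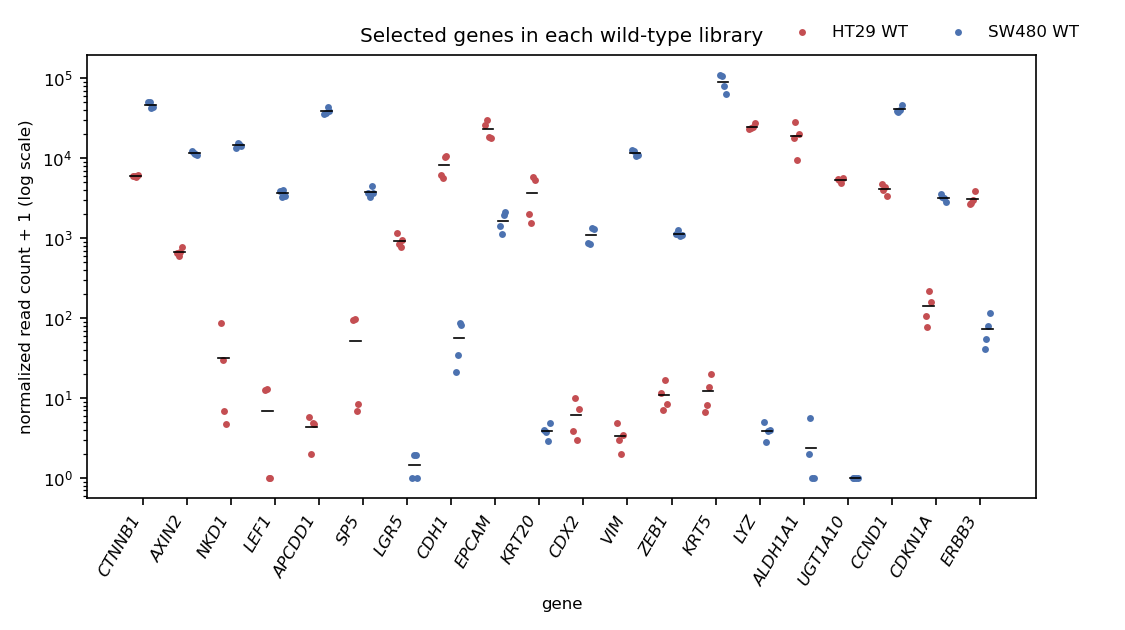
Normalized read count plus 1 (log scale) of selected genes in each library, 4 HT29 WT libraries in red and 4 SW480 WT libraries in blue, with a black bar at the mean. The genes were picked from called genes, of which 6315 of 6468 did not overlap between the lines, and none of those drawn overlaps. SP5, NKD1 and LEF1 fall into separate pairs within HT29, which are its clones 11 and 40.

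The lines were also compared in clones without intact CTNNB1. In KO clones, whose libraries are separate from those above, HT29 and SW480 differed in 6626 of 16370 genes (40.5%), 2650 higher in HT29 and 3976 higher in SW480. Of the WT calls 5943 were tested in the KO clones, 5629 kept their sign there and 4450 were called with the same sign, which is 68.8% of the WT calls and 67.2% of the KO calls. WT and KO clones of a line share their parental line. A test of the dependence of the line difference on genotype over all 16 libraries called 2014 of 17719 genes (11.4%). With clone as a random effect it called 1186. Of the WNT feedback and target genes 32 were tested, and the difference lay more toward SW480 in WT clones for 13 of them and more toward HT29 for 5. SP5 carried the largest value of the list, a difference of differences of -8.70 (adjusted p = 3.5e-05). Its KO means were 37.5 in HT29 and 13.96 in SW480, so that in KO clones HT29 was the higher line. APCDD1 differed by log2 -13.23 in WT clones and by -7.34 in KO clones, and LEF1 by -9.98 and -7.91, the latter without a called dependence (adjusted p = 0.23). AXIN2 differed by -4.10 in WT and -3.05 in KO clones, again without a called dependence (adjusted p = 0.42). Both genes were nevertheless lower in KO clones. The AXIN2 means in WT and KO were 675 and 78.8 in HT29, and 11508 and 440 in SW480. Its HT29 KO libraries ranged from 15.1 to 158. LEF1 means were 3622 and 324 in SW480, and 5.92 and 0.489 in HT29, near the floor.

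**Figure D3:**
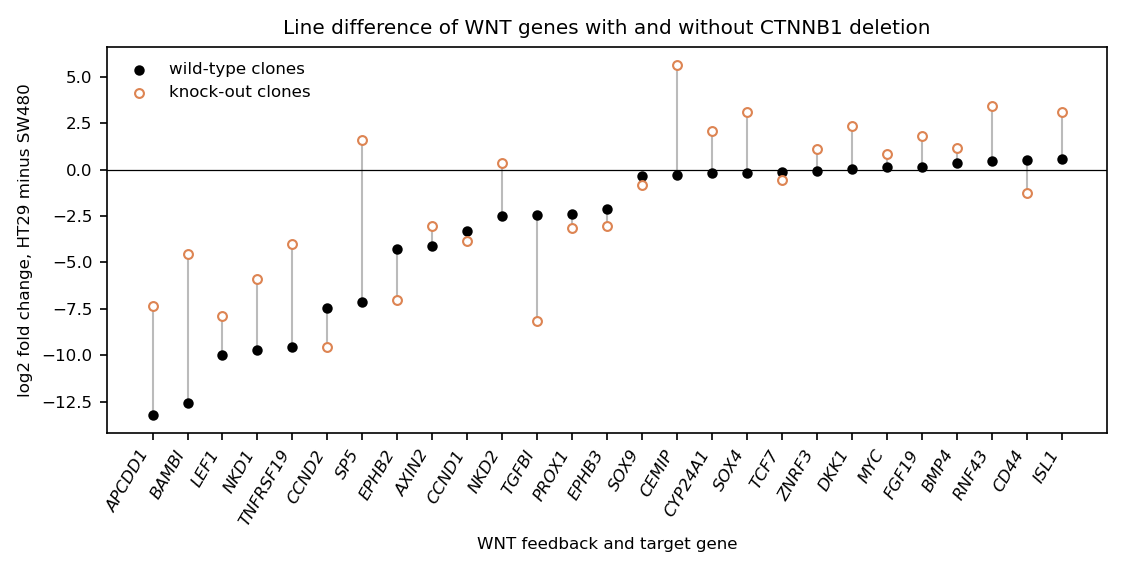
Log2 fold change, HT29 minus SW480, of 27 WNT feedback and target genes tested in both genotypes, in wild-type clones (filled circles) and in CTNNB1 knock-out clones (open circles), ordered by the wild-type value. APCDD1 moves from -13.23 to -7.34 and SP5 crosses zero, whereas CCND1 stays between -3.32 and -3.82.

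Markers of colorectal epithelium checked the labels. Of 12 markers 9 were tested, with 7 called higher in HT29, 1 higher in SW480 and KRT18 not called (97725 ± 19168 and 68862 ± 10682). The simple keratin KRT8 was abundant in both lines and 2.55-fold higher in HT29. EPCAM was at 25919, 30124, 18459 and 17724 in HT29 and at 1407, 1117, 1944 and 2110 in SW480. CDH1, E-cadherin, was at 6089, 5633, 10410 and 10586 in HT29 but only at 20.2, 34, 85.9 and 82.2 in SW480, a 147-fold difference (adjusted p = 7.8e-07). KRT20, a keratin of differentiated colonocytes, was at 2032, 1542, 5791 and 5313 in HT29 and at no more than 3.91 in SW480. Both lines had little or no CDX1, CDH17 and GPA33, and HT29 also had little CDX2. CDX1 was at 0 throughout, CDH17 and GPA33 had means of 0.981 and 7.93 in HT29 and of 4.36 and 4.88 in SW480, and CDX2, the master factor of intestinal identity, was at 2.88, 9.12, 1.98 and 6.26 in HT29 and at 881, 857, 1333 and 1315 in SW480. Of 19 markers of other cell types found in the files only 4 were tested. COL1A1, COL1A2 and ACTA2 were higher in SW480, at no more than 240 ± 27.7 (ACTA2) on average. LYZ, lysozyme of leukocytes and Paneth cells, was at 24677 ± 1832 in HT29 and 2.93 ± 0.90 in SW480, while PTPRC and CD68 were at or near 0 in both lines.

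The epithelial and mesenchymal programmes split the lines. Of 30 tested regulators and markers of epithelial-mesenchymal transition 26 were called (86.7%), beside 39.7% of all genes tested. The 11 that were higher in HT29 comprised the epithelial regulators GRHL1, GRHL2, GRHL3, OVOL1, OVOL2, ESRP1, ESRP2 and ELF3, and also TPM2, NT5E and RBPMS. GRHL2, which maintains epithelial junction genes, was at 2307 ± 302 in HT29 and 3.93 ± 2.45 in SW480. The splicing factor ESRP1 was at 4797, 4656, 8505 and 9825 in HT29 and at 3.03, 4.59, 16.4 and 34.3 in SW480. The 15 that were higher in SW480 included VIM, ZEB1, SNAI1, SNAI2, FN1 and SPARC. The intermediate filament gene VIM was at 12655, 12256, 10674 and 10921 in SW480 and at 3.84, 2.03, 0.988 and 2.51 in HT29. ZEB1, a repressor of CDH1, was at 1125, 1255, 1058 and 1108 in SW480 and at 10.6, 6.08, 15.8 and 7.52 in HT29. TWIST1 and CDH2 (N-cadherin) were not tested and were at 0 in all 8 libraries.

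Junction genes were mainly higher in HT29. Of 21 tested claudin and tight junction genes 12 were called higher in HT29 (57.1%), beside 14.8% of all genes tested. CLDN11 was the 1 called higher in SW480 (20.3 ± 13.5 and 2694 ± 914), which is 4.76% beside 24.9%. CLDN3, CLDN7 and the junctional adhesion molecule F11R were 11.3-fold, 50.9-fold and 19.8-fold higher in HT29, whereas the scaffold TJP1 was not called. CLDN2, the pore-forming claudin, was at 19824 and 14350 in HT29 clone 11, at 2384 and 2662 in clone 40 and at no more than 4.89 in SW480. Among adherens junction and desmosome genes 8 of 21 were higher in HT29 (38.1%), including JUP (plakoglobin), which was 6.93-fold higher, DSG2 and DSC2. In SW480 4 were higher (19.05%), below the 24.9% of all genes tested. The desmosomal linker DSP was one of the 4 (1452 ± 391 and 7458 ± 625), and the mesenchymal cadherin CDH11 another, at 4196 ± 906 in SW480 and 0 in every HT29 library.

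Keratins did not follow one direction, with 5 of 16 higher in HT29 (31.25%) and 7 higher in SW480 (43.75%). Among all genes tested these shares were 14.8% and 24.9%. KRT5, a basal keratin of stratified epithelia, was at 110483, 105576, 79897 and 63523 in SW480 and at 5.76, 7.10, 12.8 and 18.8 in HT29. It was the second largest difference of means on the SW480 side after HSP90AA1. KRT23 and KRT81 were 222-fold and 269-fold higher in SW480, and KRT13, a keratin of internal stratified epithelia, was at 3153 ± 2705 in HT29 against 6.41 ± 4.67.

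Factors of gut identity were mostly higher in HT29, 18 of 32 tested (56.25%) against 10 higher in SW480 (31.25%). For all genes tested the shares were 14.8% and 24.9%. VIL1 (villin), which is counted among the 18, is a cytoskeletal gene and not a factor. HNF4G, a nuclear receptor of enterocytes, was at 1578, 1305, 645 and 680 in HT29 and at 0 in every SW480 library, at least 362-fold higher against a floor of 3 reads per library. FOXA1, a pioneer factor of endoderm, was at 2576, 2728, 2936 and 2786 in HT29 and at 16.2, 17.5, 4.83 and 9.79 in SW480, and PPARG was at 4738 ± 907 and 6.57 ± 1.45. On the SW480 side stood CDX2 above and the foregut and stem cell factor SOX2 (0.974 ± 1.36 and 200 ± 37.8). Absorptive colonocyte genes were tested in 18 of 48 cases, 12 higher in HT29 (66.7%) and 4 in SW480 (22.2%). CEACAM6, CA12 and DPP4 were among the former, and the sulfate transporter SLC26A2 (119 ± 46.7 and 1349 ± 61.2) among the latter. Of 42 goblet and secretory genes 18 were tested, 9 higher in HT29 (50%) and 5 in SW480 (27.8%). AGR2, a disulfide isomerase needed for mucin folding, was at 1751, 2074, 675 and 1230 in HT29 and at 0 in SW480, at least 493-fold higher. MUC2, the main intestinal mucin, stayed at 8.94 ± 9.49 and 2.68 ± 1.51, and TFF3 at 1.23 ± 0.930 and 0.

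**Figure D4:**
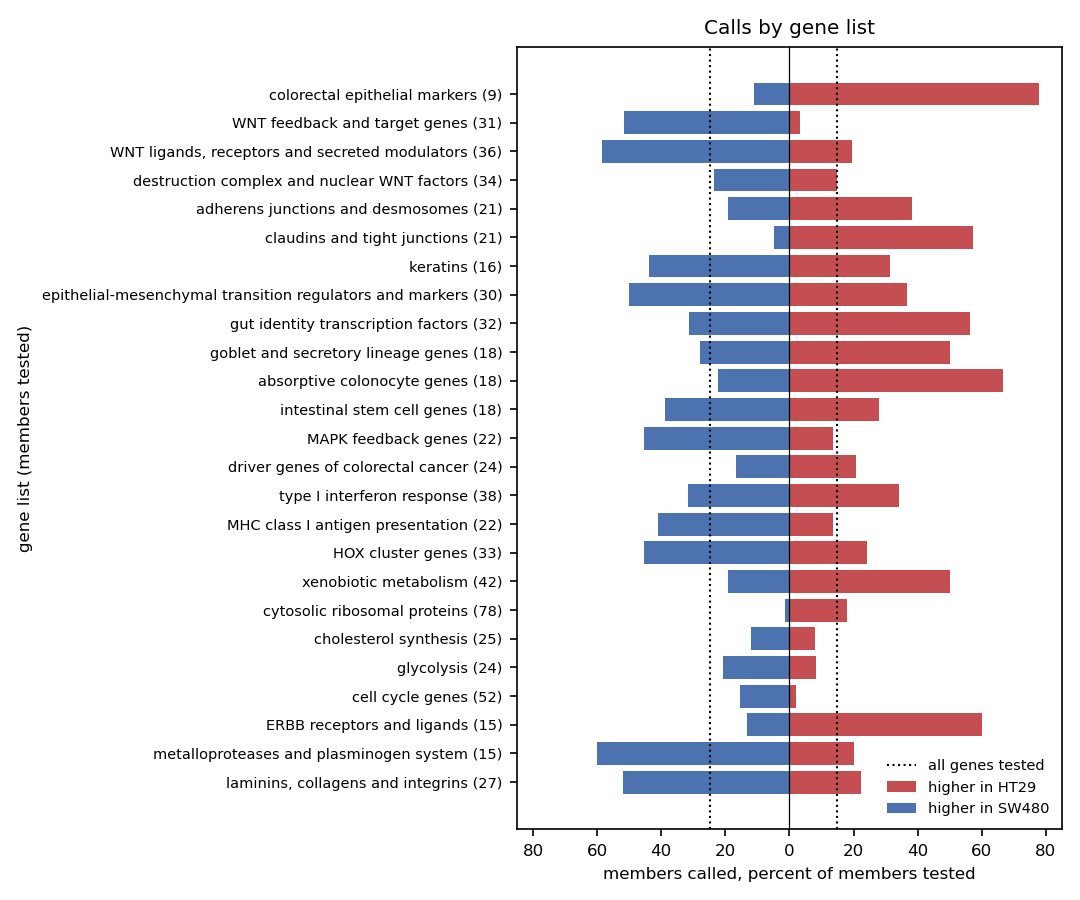
Members called as a percent of members tested in each list drawn, to the right for genes higher in HT29 and to the left for genes higher in SW480, with dotted lines at the shares of all genes tested (14.8% and 24.9%). Tight junction, absorptive, ERBB and xenobiotic genes extend to the right, and WNT, protease and matrix genes to the left.

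Xenobiotic metabolism genes were mostly higher in HT29. Of 42 genes tested 21 were higher in HT29 (50%) and 8 in SW480 (19.05%), beside 14.8% and 24.9% of all genes tested. ALDH1A1, which oxidizes retinal and other aldehydes, showed the largest difference on the HT29 side among genes with a mean of at least 1000 (log2 fold change 13.24 ± 0.56), with 17978, 28782, 9512 and 20232 in HT29 and 1.01, 4.59, 0 and 0 in SW480. UGT1A10, a glucuronosyltransferase, was at 5486, 5388, 4885 and 5710 in HT29 and 0 in SW480, at least 1847-fold higher. UGT1A genes share exons, so that counts may be split among them. The reductase AKR1B10 was at 12205 and 13475 in HT29 clone 11, at 1523 and 2146 in clone 40 and at no more than 3.86 in SW480, and the efflux pump ABCG2 was 18.9-fold higher in HT29. The other well-known drug efflux pump, ABCB1, had the opposite direction, with 702, 693, 1249 and 1180 in SW480 and 4.80, 1.01, 14.8 and 13.8 in HT29. GSTM4 and the epoxide hydrolase EPHX2 were likewise higher in SW480.

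By the size of the change, the other leading genes on the HT29 side were TM4SF4, LYZ, ANXA10, TMED3, GCNT3, LGALS4, RAB25 and POF1B. TM4SF4, ANXA10 and TMED3 were at 0 in every SW480 library, with HT29 means of 10502 ± 8743, 5852 ± 886 and 4164 ± 471. LGALS4 (galectin-4), an epithelial gut lectin, was at 12465, 13219, 3057 and 4042 in HT29 and at 3.68 at most in SW480. On the SW480 side the leading genes included APCDD1, SLC2A3, KRT5, NELL2, WNT5A, BMP7, BAMBI, GLI3 and ASB4. SLC2A3, the glucose transporter GLUT3, was at 44103, 45960, 33537 and 39423 in SW480 and at 0.960, 3.04, 3.95 and 15.03 in HT29. BAMBI, a decoy receptor of TGF-β family ligands, and the ligand BMP7 reached 7143 ± 375 and 8246 ± 199. By the difference of means, KRT8, RPL4, RPL13A, FTL and RPL21 led in HT29, and HSP90AA1, KRT5, NSMF, TGM2 and FLNA in SW480. The chaperone gene HSP90AA1 was 2.66-fold higher in SW480 (69751 ± 7472 and 185266 ± 26603), and the ferritin light chain gene FTL 2.31-fold higher in HT29. RPL21 has many processed copies in the genome, and its values are uncertain for that reason.

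Growth factor signalling differed in receptors, ligands and feedback. Of 15 tested ERBB receptor and ligand genes 9 were higher in HT29 (60%) and 2 in SW480 (13.3%). The shares of all genes tested were 14.8% and 24.9%. ERBB3 was at 2657, 2774, 3038 and 3868 in HT29 and at 40.4, 53.3, 79.2 and 114 in SW480, ERBB2 was 2.93-fold higher in HT29, and EGFR was not called (4560 ± 1555 and 3628 ± 473). The EGFR ligand gene EREG was at 3123, 1921, 2130 and 1055 in HT29 and at 16.2, 7.35, 57.9 and 41.1 in SW480, and AREG was 89.2-fold higher in HT29. MAPK feedback genes lay the other way, with 10 of 22 higher in SW480 (45.45%) and 3 in HT29 (13.6%). DUSP6, the ERK phosphatase, was at 15019, 13271, 13848 and 14320 in SW480 and at 1783, 1462, 1895 and 1605 in HT29, an 8.37-fold difference (adjusted p = 5.9e-09). SPRY4 and ETV5 were 3.56-fold and 7.27-fold higher in SW480, and SPRY1 was 8.39-fold higher in HT29. BRAF was not called (830 ± 204 and 683 ± 60.1).

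Among the genes most often mutated in colorectal cancer 9 of 24 were called, 5 higher in HT29 and 4 in SW480, a share close to that of all genes. SMAD4, the common mediator of TGF-β signals, was at 230, 165, 239 and 261 in HT29 and at 33.4, 28.5, 21.2 and 33.3 in SW480. CDKN1A (p21), an inhibitor of cyclin-dependent kinases, was at 106, 76.0, 218 and 157 in HT29 and at 3523, 3241, 3166 and 2870 in SW480, a 23-fold difference.

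Cell cycle genes, cholesterol synthesis, glycolysis and ribosomal proteins were called in 17.3%, 20%, 29.2% and 19.2% of members tested, against 39.7% of all genes. Among genes with a mean of at least 100 in each line, 2301 of 9799 were called, a lower share than the 39.7%. How far the level of expression accounts for the lower shares of these lists was not tested. Of 52 cell cycle genes 1 was higher in HT29 and 8 in SW480, and CCNB1, PCNA and MKI67 were not called. Of 25 cholesterol synthesis genes 2 were higher in HT29 and 3 in SW480, among them the squalene epoxidase gene SQLE in HT29 (3.79-fold). Glycolysis had 2 of 24 higher in HT29 and 5 in SW480. Cytosolic ribosomal protein genes had a median log2 fold change of 0.62, below the size needed for a call, and 14 of 78 were called higher in HT29 and 1, RPL26, higher in SW480. With quantile normalization 6 were called higher in HT29.

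Genes of immune recognition were divided. Of 22 tested MHC class I presentation genes 9 were higher in SW480 (40.9%) and 3 in HT29 (13.6%). The shares of all genes tested were 24.9% and 14.8%. HLA-B was at 50.9, 55.8, 30.6 and 18.8 in HT29 and at 1565, 1388, 1375 and 1358 in SW480. HLA-C was 12.7-fold higher in SW480, and B2M was not called. The HLA genes resemble each other and vary among people, so that reads may be missing or divided. The MHC class I transactivator NLRC5 and the peptide supply genes TAP1 and PSMB9 were all higher in SW480. Of 38 tested type I interferon response genes 13 were higher in HT29 (34.2%), such as OAS1, IFI44 and SAMD9. In SW480 12 were higher (31.6%), such as IFITM1 and IFITM3. IFITM3, which blocks viral entry, was at 491, 528, 274 and 183 in HT29 and at 9501, 9030, 10195 and 9467 in SW480. Of 35 cancer-testis genes found in the files only MAGEC2 was tested, at 3993, 3810, 3593 and 3858 in SW480 and at 2.96 or less in HT29.

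Protease, matrix and integrin genes were mainly higher in SW480. In the metalloprotease and plasminogen group 9 of 15 were higher in SW480 (60%) and 3 in HT29 (20%). For all genes tested the shares were 24.9% and 14.8%. MMP14, a membrane-bound collagenase, was 37.3-fold higher in SW480 (74.5 ± 22.7 and 2779 ± 169). MMP7 (matrilysin), an epithelial metalloprotease, was at 16011, 7969, 847 and 286 in HT29 and at 9.65 at most in SW480, so that the HT29 clones lay far apart. Of 27 laminin, collagen and integrin genes 14 were higher in SW480 (51.85%) and 6 in HT29 (22.2%). The fibronectin receptor subunit ITGA5 was at 1652, 1729, 1706 and 1509 in SW480 and 0 in HT29, at least 522-fold higher, and the epithelial integrin ITGB6 was 244-fold higher in HT29.

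HOX genes, which keep a record of position along the body axis, were higher in SW480 for 15 of 33 tested (45.45%). In HT29 8 were higher (24.2%). Among all genes tested these shares were 24.9% and 14.8%. The called members of the HOXC and HOXD clusters, HOXC10 and HOXD10 among them, were all higher in SW480. HOXC10 was at 639, 622, 580 and 618 in SW480 and at 0, 2.03, 5.93 and 6.26 in HT29, and HOXD10 was at 185 ± 25.8 in SW480 and 0 in HT29. HOXA13, the hindgut member of the HOXA cluster, was 13.8-fold higher in HT29 (2032 ± 342 and 147 ± 39.4), and HOXB9 was 4.34-fold higher.

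The difference between the lines followed position along the chromosomes. Per chromosome, the median log2 fold change ran from -0.82 on chromosome 21 (167 tested genes) and -0.76 on chromosome 14 (540) to 0.43 on chromosome 13 (302) and 0.51 on chromosome 15 (519). In 311 windows of 50 consecutive tested genes the medians had quartiles at -0.36 and 0.23. The first 5 windows of chromosome 17 (GRCh37 positions 62180 to 18231370) had medians between -1.60 and -1.20, and SW480 had the higher mean for 42 to 48 of 50 genes. On the same chromosome the windows from position 30187923 to 38804906 had medians of 0.69 and 0.75. Chromosome 14 from position 64063757 to 103995409 had medians between -1.39 and -0.90 in 5 windows. Chromosome 8 differed in both directions, with a median of -1.21 between positions 21881636 and 27670157 and 1.31 between positions 124054208 and 141645732, the highest of the 311 windows. In the KO clones the medians of these last 2 windows were -1.81 and 1.56, and those of the first 5 windows of chromosome 17 lay between -1.15 and -0.70. The regions thus differed in the same direction in clones that the WT comparison did not use.

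Within the lines the HT29 clones differed more than the SW480 clones. Clones 11 and 40 of HT29 were apart by more than 2 on the log2 scale, with all libraries of one clone above those of the other, in 586 tested genes, and clones 4 and 5 of SW480 in 62. These counts rest on 2 libraries per clone and carry no test. The widest gaps in HT29, picked after the values were seen, included GPC4, a cell surface proteoglycan (2286 and 1857 in clone 11, 9.88 and 2.51 in clone 40), the chloride channel CFTR (2868 and 1929, 77.1 and 105) and CHFR, a mitotic checkpoint ubiquitin ligase (0 and 0, 199 and 264). Of the 586 genes 398 were also called between the lines. In SW480 CLDN1 was at 182 and 151 in clone 4 and at 945 and 894 in clone 5.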

How the data were processed

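RNA of 2 WT clones each of HT29 and SW480 was sequenced in rounds A and B with the TruSeq RNA Sample Prep Kit v2. Alignment by the authors used STAR 2.7.5b and the GRCh37 genome, and featureCounts 2.0.1 gave counts per gene. The deposited values are signal, gene counts divided by 1 DESeq2 size factor per library. Every value was a whole multiple of the value of 1 read within 0.001, and reads were recovered on that basis. Of 58051 identifiers 95.8% had a symbol, and 37 mitochondrial ones held 0 reads. Tables of the authors' own comparisons, with fold changes and p-values, were not used.

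Genes reaching 10 in 4 or more of the 8 libraries were tested with limma 3.58.1 (trend and robust options, two-sided, Benjamini-Hochberg adjustment over all genes tested) on log2(value + 1), in place of a count test because the values are not counts. Fitted fold changes of genes at or near 0 in one line depend on the pseudocount of 1. For genes at 0 in a line, folds are bounds against 3 reads per library. Folds in the text are ratios of means, errors are SD (n = 4) or SE of the fit. Floors cover counting error only. Recovered reads were also tested with edgeR 4.0.16 and DESeq2 1.42.0. The test was also run on simulated data with these library sizes, at a lower fold threshold. Those data were drawn without differences between clones, so that run cannot speak to the spread between clones. R 4.3.3, Python 3.11.15, pandas 2.3.3, numpy 2.4.6 and matplotlib 3.10.9 were used.

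Named genes were the members of 28 gene lists, the 10 largest log2 fold changes per line among called genes with a mean of at least 1000 and no overlap, the 5 largest differences of means per line and genes within 3 Mb of CTNNB1. The comparison, lists and genes were chosen with earlier results of these data known. Gene positions come from GENCODE for GRCh37 and promoters from RefSeq on GRCh38.p14. Alternatives were other tests, scalings, pseudocounts, filters, thinning, averaging of rounds, clone as a random effect, round as a block and leaving out each library or clone. Results for some members of these lists are not reported here.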

Additional observations from a re-analysis of the deposited data

Results flagged for a closer look

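For 19 of 45 genes with values per library, the line difference depended on genotype by limma's interaction test, beside 11.4% of all 17719 genes tested. The 45 genes were picked with earlier results known, and all were called between the lines. Of all 6468 genes called between the lines, 1301 had a called dependence. The 45 are therefore no sample of all genes, and their share was not tested. Values are the log2 difference HT29 minus SW480 in WT clones minus that in KO clones. Negative values, a difference lying more toward SW480 in WT clones, were found for CTNNB1 (-1.21), NKD1 (-3.85), APCDD1 (-5.89), SP5 (-8.70), KRT20 (-4.28), CDX2 (-4.43), LGALS4 (-2.64), KRT5 (-2.22), AGR2 (-3.82), ABCB1 (-2.54), CDKN1A (-1.26), DUSP6 (-1.50), MAGEC2 (-2.32) and SLC2A3 (-4.15). Positive values were found for LGR5 (4.75), WNT7B (5.01), CLDN2 (3.801), LYZ (2.89) and EREG (5.35). Some values rest wholly or partly on the line with few reads. LYZ means in WT and KO were 24677 and 21624 in HT29, but 2.93 and 24.8 in SW480. MAGEC2 means were 3813 and 3902 in SW480, but 0.994 and 10.4 in HT29. KRT20 means were 3669 and 16524 in HT29, and 2.91 and 0 in SW480. With clone as a random effect 13 of the 19 passed. Those that did not were NKD1, LGALS4, KRT5, ABCB1, CDKN1A and MAGEC2. CTNNB1 is the deleted gene, and its reads outside exon 7 remain countable in KO clones. Each genotype rests on 2 clones per line, so genotype and clone cannot be fully told apart.

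Among 71 groups of 4 libraries, 1 held a library apart from the others: HLA-B was at 1565 in SW480 clone 4 round A and between 1358 and 1388 in the other SW480 libraries. For 4 independent values from a normal distribution, chance sets apart about 1 in 20 groups. Libraries of the same clone are not independent, so the rate for these groups is not known.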

How the results depend on the processing

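All 45 genes with values per library, and 341 of 409 called genes of the lists and rules, were called under every one of 25 alternatives that tested them, and none reversed. A value of at least 10 in every library left 3495 calls, 1607 higher in HT29 and 1888 higher in SW480, among fewer genes tested (12490), since it removes genes silent in one line. A value above 0 in 1 library gave 6135 genes higher in SW480. edgeR and DESeq2 each called 6441 genes, rounds averaged per clone gave 5812, and leaving out 1 library gave 6356 to 6521. Leaving out a clone gave 6069 to 6768. The dependence on genotype fell to 1186 genes with clone as a random effect, 618 more toward HT29 and 568 more toward SW480 in WT clones; leaving out 1 library gave 1754 to 2223. With genes of a mean of at least 100, the medians of chromosomes 13, 14, 15 and 21 were 0.60, -0.69, 0.61 and -0.72; the cause of these shifts was not tested. Rounds share only a letter: with round as a replicate block 6435 genes were called, and deviations of same-lettered samples correlated from -0.071 to 0.158, with 2 of 6 pairs over 0.1. Depth limits statements on genes at 3 reads or fewer to their not being detectable.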
